A study of Solanum lycopersicum with 18 samples.

Results

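The genes compared here are those whose response to induction at 3 h could be set side by side in tomato roots and tomato callus. For each gene the log2 fold change in callus was taken away from the log2 fold change in roots, after each tissue's values had been centred on their median. Genes with a callus fold of exactly 1 were left out, which kept 4928 of the 5295 features in the authors' deposited table and left out 367. The account below turns on the genes that responded in 1 tissue only and on those that moved in opposite directions.

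All plants (Solanum lycopersicum) carried 2 snapdragon regulators of pigment synthesis, the MYB factor Rosea1 and the bHLH factor Delila, under a system switched on by dexamethasone (DEX), a synthetic glucocorticoid. Callus, undifferentiated tissue grown in culture, and roots were each sampled uninduced and 3 h after 10 mg/L DEX, with 3 RNA-seq libraries per group and 12 libraries in these 4 groups. A further 24 h group of each tissue is used only for values set beside those at 3 h. Uninduced callus and uninduced root are the only controls, no group is labelled as DEX-treated without the transgenes, and the labels leave unsaid whether libraries of 1 group are from different plants or cultures.

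A MYB and a bHLH protein act together with a WD-repeat protein to switch on the late genes of anthocyanin synthesis, a branch of flavonoid metabolism that starts with chalcone synthase and ends with glycosylated, acylated pigments stored in the vacuole. In roots, growth depends on dividing cells in the meristem, and on transporters and wall proteins of the outer cell layers. Small heat shock proteins hold unfolding proteins in a soluble state, and their transcripts change quickly in many kinds of stress.

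The deposited values are the authors' fold changes for each comparison, and values per library, their spread and p-values were not analysed here. Sequencing depth is unknown. All results are therefore descriptions, with no test, and whether a difference is larger than the spread between replicates could not be determined. Marker genes could not be used to check either tissue, since folds carry no level. Per its title the table was limited to features past an FDR of 0.05 and a fold of 2 in any comparison, and 0 features had a largest fold under 2. At 3 h, 4016 of the 5295 features were at least 2-fold from 1 in roots and 2713 in callus, before centring. Over all features the log2 fold had a median of 0.00 in callus and -0.58 in roots, so centring raised every root value by the same amount. In a table selected on response, that median is not known to mark genes without a response, and counts without centring are therefore given beside the classes. Values below are centred log2 folds of DEX over uninduced samples of the same tissue, unless said otherwise, and a difference is root minus callus.

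A response was a centred log2 fold of at least 1 in size (2-fold), and a tissue was called without response when its value was under 0.5 in size (1.414-fold). Roots had 1951 members at least 2-fold higher (39.6% of the 4928) and 1119 lower (22.7%). In callus, 1473 were higher (29.9%) and 1240 lower (25.2%). The difference between tissues was at least 1 for 1589 members (32.2%) and at most -1 for 880 (17.9%), with a median of 0.24 over all members. Responses in 1 tissue only, with a difference of at least 1 in size, were found for 967 members (19.6%), and 193 (3.92%) moved in opposite directions. Both tissues moved in the same direction for 1580 members (32.1%), 918 (18.6%) responded in neither, and 1270 (25.8%) fell between these limits. The genes nearest to the limit of 1 in roots were Solyc01g112220 at 1.0 just inside and Solyc11g068380 at 0.999 just outside on the higher side, and Solyc09g065180 at -1.0 and Solyc02g068060 at -0.999 on the lower side. In callus they were Solyc01g107400 at 1.0 and Solyc01g094970 at 0.999, and Solyc03g119880 at -1.0 and Solyc08g080730 at -0.999.

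**Figure D1:**
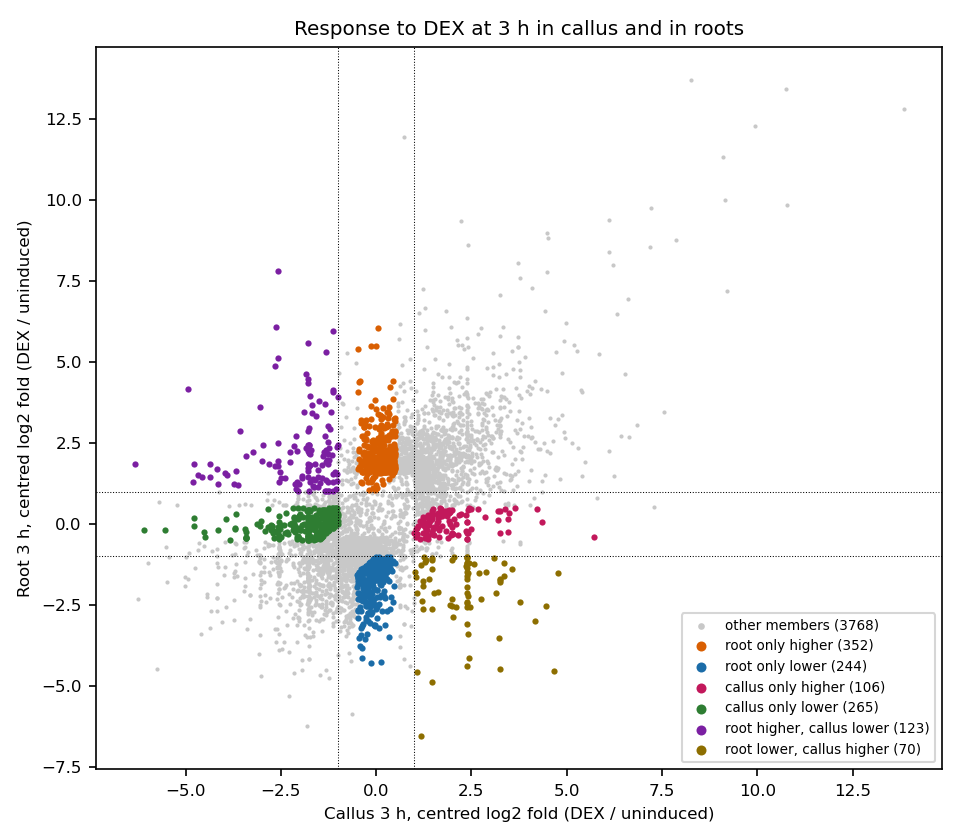
Each point is 1 of the 4928 members, with its centred log2 fold at 3 h in callus on the horizontal axis and in roots on the vertical axis, and dotted lines at the 2-fold limits. The 6 coloured groups are the genes of 1 tissue only (967 in all) and of opposite directions (193), and the narrow vertical bands of points near callus values of -1.8 and 2.4 are described in the text.

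Genes that were higher in roots and without response in callus numbered 352 (7.14% of members). Their median was 1.94 in roots and 0.13 in callus. The largest difference belonged to Solyc02g080120, described as a gibberellin 2-beta-dioxygenase, an enzyme that inactivates gibberellins, at 6.05 in roots and 0.06 in callus. In the authors' deposited table this is a fold of 44.2 in roots and 1.04 in callus. Ethylene-responsive transcription factor gene Solyc03g026270 stood at 5.50 in roots and 0.00 in callus. The GDSL esterase/lipase gene Solyc03g111550 stood at 4.42 and -0.42, and the allantoinase gene Solyc02g078400, of purine breakdown, at 4.09 and -0.48. Solyc07g056570 encodes a 9-cis-epoxycarotenoid dioxygenase, which catalyses the committed step of abscisic acid synthesis, and stood at 4.43 in roots and 0.44 in callus. Transmembrane protein 205 (Solyc06g065050), a Mutator-like transposase (Solyc03g093100) and a serine/threonine kinase (Solyc07g051870) completed the 8 largest, with root values from 4.39 to 5.49. These 8 genes kept their class without centring, as did 236 of the 352.

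Genes that were lower in roots and without response in callus numbered 244 (4.95%). Their median was -1.68 in roots and -0.13 in callus. Oligopeptide transporter 4 (Solyc01g106200) had the largest difference, at -4.27 in roots and 0.14 in callus, which the authors' deposited table gives as a reduction of 28.9-fold in roots and a fold of 1.1 in callus. Peroxidase 57 (Solyc10g084200), one of the secreted enzymes that act on cell walls, stood at -3.48 and 0.35. The cortical cell-delineating protein gene Solyc08g079230 stood at -3.77 and -0.41. Sucrose phosphate synthase (Solyc09g092130), which makes the precursor of sucrose, stood at -3.10 and 0.23, and the blue copper protein gene Solyc07g052660 at -3.20 and 0.07. A second GDSL esterase/lipase gene, Solyc02g071690, went the other way from its relative above, at -4.28 in roots and -0.15 in callus. The receptor-like kinase gene Solyc08g061560 stood at -4.14 in roots and -0.36 in callus, and at 24 h its log2 fold in roots, not centred, was 3.20. In bulk tissue, fewer cells of a type and less RNA per cell cannot be told apart. Without centring this class held 512 genes, all 244 among them, since root values were then lower and no gene could leave. When each tissue was instead centred on genes under 2-fold in the other tissue, 81 of the 244 stayed.

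Callus-only responses were fewer on the higher side. Without centring, smaller shares of them kept their class than of genes higher in roots only. Members higher in callus and without response in roots numbered 106 (2.15%), with a median of 1.71 in callus and 0.07 in roots. The (E)-beta-ocimene synthase gene Solyc01g105960, for a volatile monoterpene, stood at 5.72 in callus and -0.40 in roots. ABC transporter G family member 32 (Solyc05g018510), whose Arabidopsis counterpart exports cutin precursors, stood at 4.35 and 0.06. Pinoresinol-lariciresinol reductase (Solyc06g066170), of lignan synthesis, stood at 3.65 and 0.49, and NADPH dehydrogenase 3 (Solyc11g032130) at 3.47 and 0.15. A carboxyl-terminal proteinase (Solyc07g056610), a Myb-like factor (Solyc04g079600), MLO-like protein 1 (Solyc01g102520) and a receptor-like kinase (Solyc06g069650) were the others of the 8 largest, with callus values from 3.25 to 4.23. Without centring the class held 195 genes, with 51 of the 106 among them; the ocimene synthase gene, ABC transporter 32, the Myb-like factor and MLO-like protein 1 lost it because their root values then stood between -0.98 and -0.53.

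Members lower in callus and without response in roots numbered 265 (5.38%), with a median of -1.51 in callus and -0.00 in roots. Geranylgeranyl pyrophosphate synthase (Solyc07g064660), which makes the precursor of carotenoids and gibberellins, had the largest difference, at -6.10 in callus and -0.18 in roots. Its callus fold was the same at 3 h and 24 h. A fold of exactly 1, or the same fold at both times in a tissue, was found for 24 of the 265 (9.06%). The share over all members was 4.14%. An auxin efflux carrier (Solyc06g059730), of the family that moves auxin out of cells, stood at -4.79 in callus and 0.18 in roots. A peptide transporter (Solyc03g113430) stood at -3.95 and 0.14, and a FAD-binding protein (Solyc02g070180) at -3.67 and 0.32. The cytochrome P450 Solyc06g076800, the amino acid transporter Solyc00g007130, the peroxidase Solyc05g010330 and the lipid-transfer protein Solyc03g005210 stood at -5.54, -4.77, -4.51 and -4.50 in callus, all with root values between -0.41 and -0.06. Without centring the class held 158 genes, and 57 of the 265 stayed in it. The geranylgeranyl pyrophosphate synthase gene and the last 4 genes named were then between the limits, with root values from -0.99 to -0.64.

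Opposite directions were found in 123 members (2.50%) that were higher in roots and lower in callus. Their medians were 1.92 in roots and -1.77 in callus. Calcium-binding protein 39 (Solyc07g065130) stood at 4.17 in roots and -4.93 in callus. The authors' deposited table gives it a fold of 12.1 in roots and a reduction of 30.5-fold in callus. Gibberellin 2-oxidase 1 (Solyc02g070430), another gibberellin-inactivating enzyme, stood at 1.85 in roots and -6.33 in callus. A gene described as flavonol synthase/flavanone 3-hydroxylase (Solyc06g073080), of the flavonoid pathway by that description, stood at 4.89 and -2.66. The wound induced protein gene Solyc07g054750 stood at 5.14 and -2.57, the TIGR01615 family gene Solyc09g057760 at 6.08 and -2.63, and the AtIII18x5-like gene Solyc03g111100 at 5.94 and -1.13. The largest difference of the class, 10.38, belonged to Solyc01g087180, which has no described function. Without centring root values were lower, so the class could lose genes and gain none, and it held 81 of the 123.

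The reverse pattern, lower in roots and higher in callus, was found in 70 members (1.42%), with medians of -1.78 in roots and 2.39 in callus. Peroxidase 1 (Solyc11g007210) had the largest negative difference of all members, -9.18, from -4.53 in roots and 4.66 in callus. Its callus fold at 24 h was exactly 1. Folds of exactly 1, or repeated at both times in a tissue, were found for 16 of the 70 (22.9%), against 4.14% of all members. Proteinase inhibitor II (Solyc11g020960), a defence protein against insect digestion, stood at -4.46 in roots and 3.24 in callus. Chlorophyll a-b binding protein 3C-like (Solyc03g005770), a light-harvesting protein, stood at -2.53 and 4.47. A dirigent-like protein (Solyc04g010270) stood at -4.40 and 2.39, a cytochrome P450 (Solyc04g071800) at -3.51 and 3.23, actin depolymerizing factor 10 (Solyc06g035980), which promotes actin turnover, at -4.15 and 2.43, and an oxidoreductase (Solyc01g073640) at -2.98 and 4.17. Without centring the class held 113 genes, with all 70 among them, since root values were then lower and no gene could leave. When each tissue was instead centred on genes under 2-fold in the other tissue, 40 of the 70 stayed.

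Callus values were not spread evenly. Before centring, 190 members had a callus log2 fold between -1.9 and -1.7, against 81 and 111 in the neighbouring windows of the same width, and 119 lay between 2.3 and 2.5, against 77 and 38. Smaller heaps lay at -2.6 to -2.5 (58 members), -3.1 to -3.0 (23) and 3.2 to 3.3 (29). Root values in the same windows followed their neighbours, for example 201 between -1.9 and -1.7 against 157 and 232. These 5 callus windows, chosen after the values were seen, hold 419 members (8.5%). They hold 35 of the 123 genes that were higher in roots and lower in callus (28.5%) and 28 of the 70 with the reverse pattern (40%). Without the windows, 88 and 42 genes were left in these classes. Proteinase inhibitor II, the dirigent-like gene, the cytochrome P450 Solyc04g071800, actin depolymerizing factor 10, the wound induced protein gene, Solyc01g087180 and MLO-like protein 1 lie in a heap. Of genes named further on, so do the small heat shock genes Solyc01g102960, Solyc06g076540 and Solyc06g076570, the heat stress factor Solyc07g055710, the sulfate transporter Solyc09g065560, the extensin-like gene Solyc01g097720 and the thaumatin-like gene Solyc03g079960. The part of the heaps in the results was not tested.

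**Figure D2:**
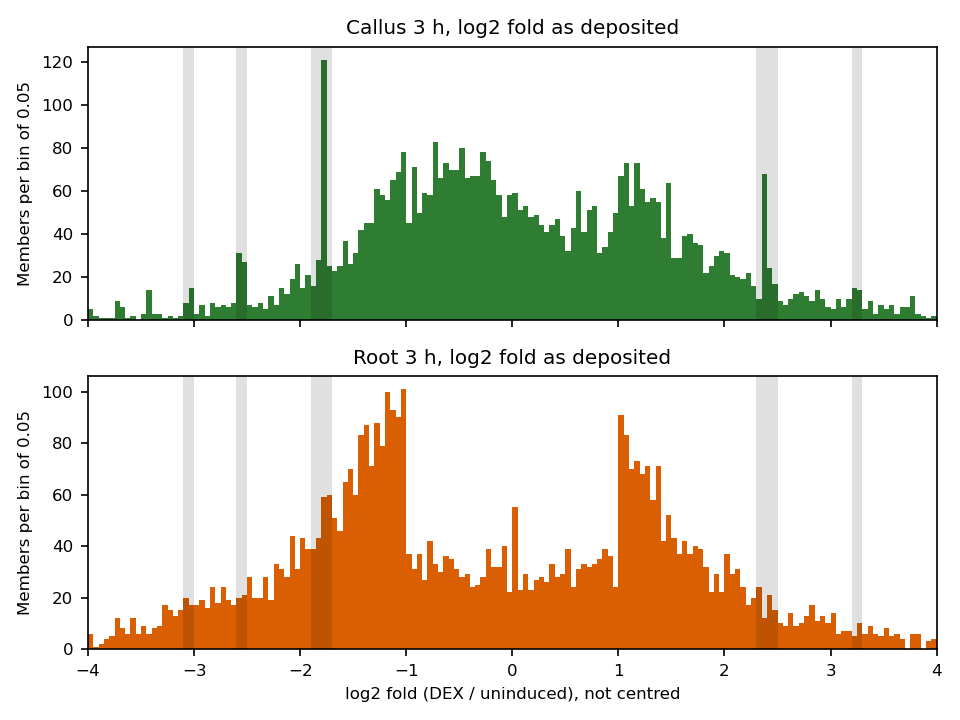
The number of members in bins of 0.05 log2 units is plotted against the log2 fold at 3 h as deposited, not centred, for callus (upper) and roots (lower), and grey bands mark the 5 callus windows. Callus values heap up within the bands, with 190 members between -1.9 and -1.7. Root values step at a log2 fold of -1 and 1, where 376 features lay between 1 and 1.1 in size against 128 between 0.9 and 1. In callus these counts were 289 and 205.

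Of 62 gene lists taken from descriptions or identifiers, 59 had 5 or more members. Of these 59, 15 had a median difference at least 0.5 above that of all members and 13 at least 0.5 below it. Beyond the anthocyanin genes, the highest belonged to small heat shock proteins, gibberellin 2-oxidases, chaperones, protein phosphatases 2C, and abscisic acid and dehydration genes. The lowest belonged to H3 histones, A and B cyclins, H2A histones, chlorophyll a/b binding proteins and kinesins. Without centring every difference is lower by 0.58, so the median over all members is -0.34 and 20 of the 59 lists, those with medians from 0.06 to 0.58, turn negative. Lists overlap, and members of a family are not replicates of a condition. Counts in the lists below stand beside these shares of all members: 39.6% higher and 22.7% lower in roots, and 29.9% and 25.2% in callus. The difference was at least 1 for 32.2% of all members and at most -1 for 17.9%.

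**Figure D3:**
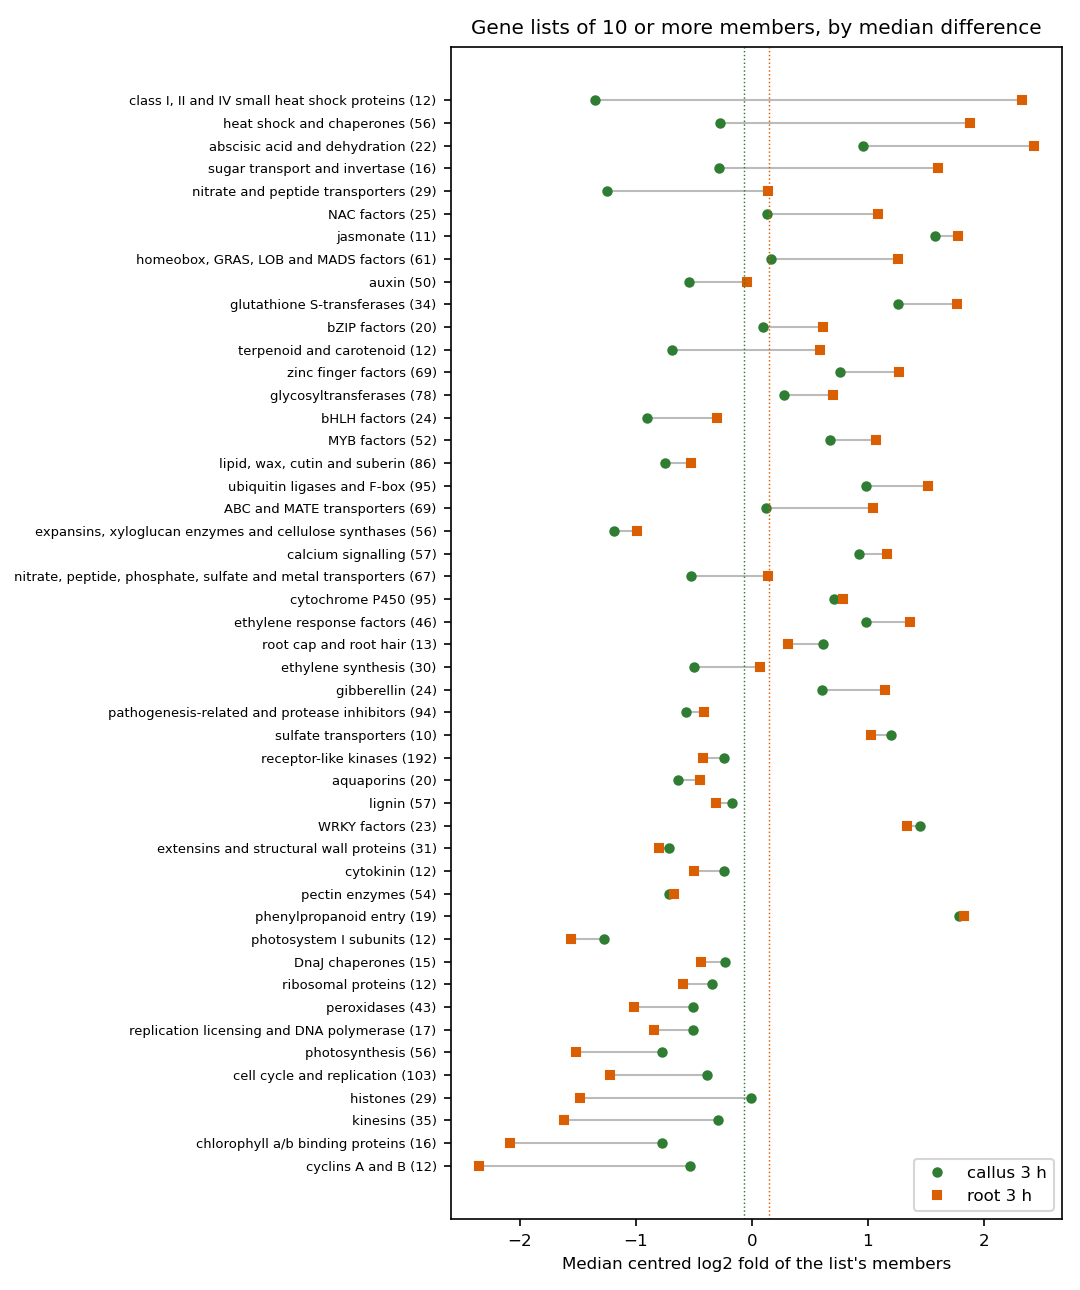
Median centred log2 folds at 3 h in callus (circles) and roots (squares) are plotted for each list of 10 or more members, ordered by the median difference, with the number of members in brackets and dotted lines at the medians of all members. Class I, II and IV small heat shock proteins lie at -1.35 in callus and 2.33 in roots at the top, and A and B cyclins at -0.53 and -2.35 at the bottom.

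Heat shock and chaperone genes showed the widest split between the tissues among the larger lists. Of 56 members, 38 were higher and 6 lower in roots, while 13 were higher and 18 lower in callus. The median was 1.88 in roots and -0.27 in callus, and the median difference was 1.95, against 0.24 for all members. The difference was at least 1 for 39 of the 56 (69.6%) and at most -1 for 4 (7.1%), against 32.2% and 17.9% of all members. Without centring the median difference was 1.37. The list held 9 genes higher in roots only and 10 in opposite directions, of which 6 were opposite without centring.

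Within it, the 12 class I, II and IV small heat shock proteins stood highest, with a median of 2.33 in roots and -1.35 in callus. In roots 10 of the 12 were higher and 0 lower, and in callus 2 were higher and 6 lower. The class IV gene Solyc11g020330 stood at 2.88 in roots and -3.58 in callus, and the class IV gene Solyc01g102960 at 3.47 and -1.89. The class II genes Solyc03g123540 and Solyc08g062450 stood at 4.65 and -0.99 and at 3.73 and -0.89. Callus values of 5 of the 12 lie in the heaps described above, and the median difference of the other 7 was 2.70, against 3.13 for all 12. Of the 12, 4 were higher in roots and lower in callus and 1 was lower in callus only. Among the other 7 these counts were 1 and 0. Genes with neighbouring identifiers, picked out after their values were seen, differed: Solyc06g076540 stood at 2.27 in roots and -1.72 in callus, Solyc06g076560 at 1.80 and 0.05, and Solyc06g076570 at -0.14 and -1.78.

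Heat stress transcription factors, which switch such genes on, were higher in roots in 8 of 9 cases and in callus in 5 of 9, and none was lower. Heat shock transcription factor 1 (Solyc02g079180) stood at 5.41 in roots and 2.30 in callus. A heat stress factor A3 gene (Solyc07g055710) was the exception, at 0.48 in roots and 2.44 in callus, a value within a heap. The 15 DnaJ proteins, co-chaperones of HSP70, had a median difference of -0.20 and did not share the split, although Solyc11g071830 stood at 3.24 in roots and 0.13 in callus. At 24 h the whole list of 56 had median log2 folds, not centred, of 0.01 in roots and 0.34 in callus, each from samples set against the same uninduced libraries as at 3 h.

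**Figure D4:**
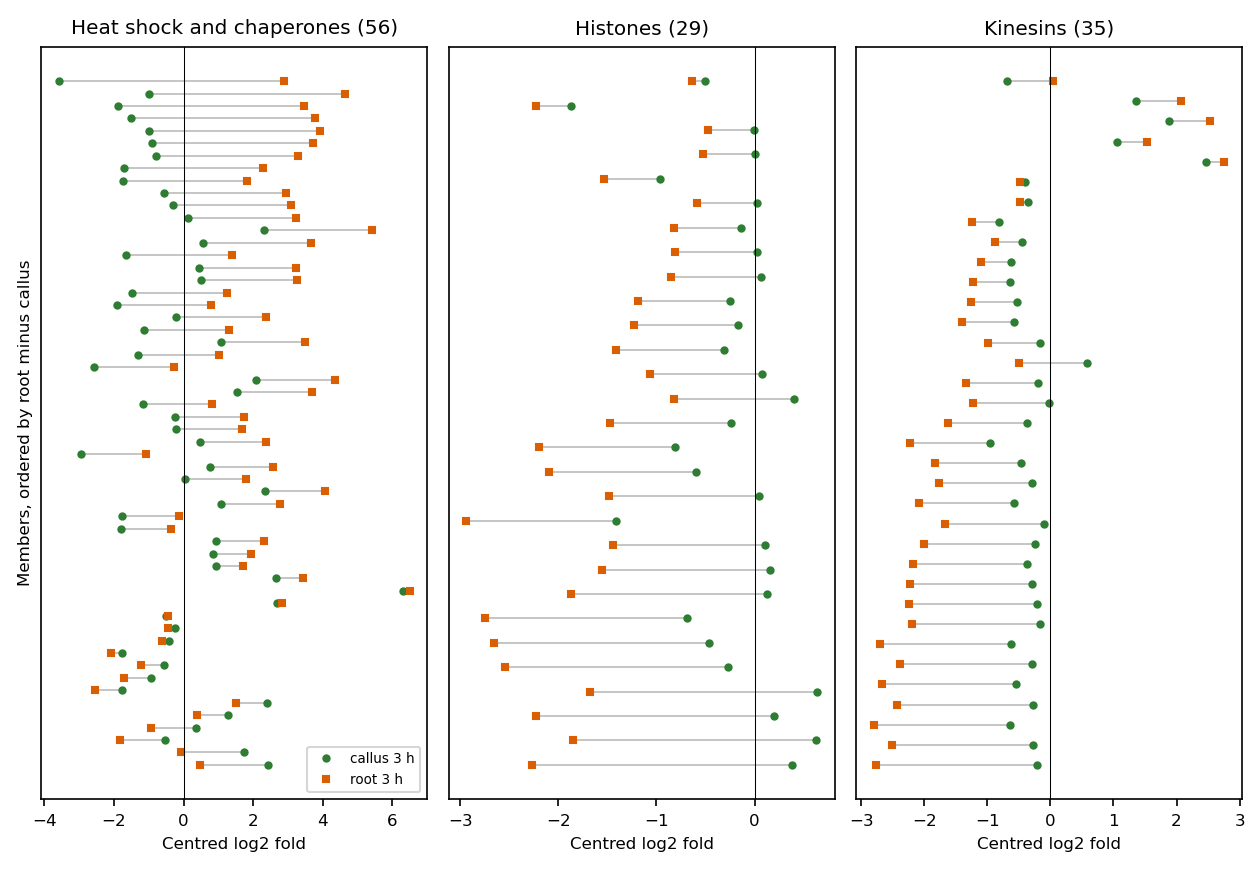
Each line is 1 gene, with its centred log2 fold at 3 h in callus (circle) and in roots (square), for 56 heat shock and chaperone genes, 29 histones and 35 kinesins, ordered by the difference. In the left panel 44 squares lie to the right of their circle, and in the histone panel all 29 squares lie to the left.

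Of 22 abscisic acid and dehydration genes, 20 were higher in roots and 0 lower, with a median of 2.43 and a median difference of 1.83. In callus 10 were higher and 3 lower, with a median of 0.96. The difference was at least 1 for 17 of the 22 (77.3%), against 32.2% of all members, and for 12 without centring. Of all members, 39.6% were higher in roots. Dehydrin (Solyc04g082200), a protein that accumulates in drying tissue, stood at 4.34 in roots and 0.69 in callus. A late embryogenesis abundant protein (Solyc01g095140) was higher in both, at 7.29 and 4.10. Protein phosphatases 2C, some of which block abscisic acid signalling in Arabidopsis, had differences of at least 1 in 5 of 5 members. The largest was that of Solyc06g051940, at 4.13 in roots and -1.14 in callus.

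Among 8 gibberellin 2-oxidases, 7 were higher and 1 lower in roots, while 3 were higher and 2 lower in callus. Beyond the genes named above, Solyc10g005360 stood at 1.85 in roots and -2.80 in callus, and Solyc07g056670 at 4.20 and 0.91. The exception among the 8, Solyc03g116260, stood at -1.95 in roots and 0.60 in callus. A further 1 was left out for a callus fold of exactly 1 and was also lower in roots. The wider list of 24 gibberellin genes had a median difference of 0.17, close to that of all members. Of 50 auxin genes, 21 had a difference of at least 1 (42%) and 3 of at most -1 (6%), against 32.2% and 17.9% of all members. Their median difference was 0.82. Auxin response factor 9 (Solyc03g120380), a transcription factor, stood at 1.19 in roots and -3.63 in callus, and the SAUR-like gene Solyc05g046320 at 2.29 and -0.10. Allene oxide cyclase (Solyc02g085730), of jasmonate synthesis, stood at 2.80 in roots and -0.24 in callus.

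Sugar and nutrient genes split unevenly. All 6 genes of trehalose phosphate synthesis and breakdown were higher in roots, with a median of 2.45, against 1.29 in callus, where 4 were higher and 1 lower. Trehalose-6-phosphate phosphatase Solyc04g054930, which removes the phosphate from a sugar signal, stood at 1.62 in roots and -1.09 in callus. Of 29 nitrate and peptide transporters, 15 were lower in callus, against 6 in roots, and 6 moved in opposite directions (4 without centring). Of all members, 25.2% were lower in callus and 22.7% in roots, and 3.92% moved in opposite directions. The nitrate transporter Solyc11g042820 stood at 1.44 in roots and -4.58 in callus, and the peptide transporter Solyc05g005910 at 1.86 and -4.77. The list's median difference was 1.11, and 0.53 without centring. Sulfate transporters went both ways, with Solyc09g065560 at 2.28 in roots and -1.77 in callus and Solyc06g084140, described as a high affinity sulfate transporter, at -3.12 and -0.03.

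Genes of cell division stood lower in roots than in callus, where the median of the histones was near 0 and that of the A and B cyclins was -0.53. All 29 histones, the proteins that package DNA, had a difference below 0, with a median of -1.24. In roots 21 were lower and 0 higher, with a median of -1.48, and in callus 2 were lower and 0 higher, with a median of -0.00. All 7 H3 histones had a difference of at most -1. Solyc10g008910 stood at -2.22 in roots and 0.20 in callus, and Solyc01g086820 at -2.54 and -0.27. An H4 histone, Solyc11g072860, had the largest difference of the family, from -2.27 in roots and 0.39 in callus. Histone transcripts often lack a poly(A) tail in animals but carry one in plants. Near-identical histone copies can share reads, so the split of values between single copies is uncertain.

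Of 35 kinesins, motor proteins, many of which serve the spindle and the phragmoplast in plants, 25 were lower in roots and 0 in callus, and 15 were lower in roots only. The 4 kinesins that were higher in roots were the 4 that were higher in callus. Among 12 A and B cyclins, which drive entry into mitosis, 11 were lower in roots and 2 in callus. The B cyclin Solyc10g080950 stood at -2.78 in roots and -0.13 in callus, and Cyclin B1 (Solyc01g009040) at -2.55 and -0.15. The 103 genes of the cell cycle and replication list, which includes these kinesins and cyclins, had 57 lower in roots and 12 in callus, with a median difference of -0.74. Replication licensing and DNA polymerase genes were closer, with a median of -0.85 in roots and -0.51 in callus over 17 members. Under a centring on genes with less than 2-fold change in the other tissue, the median difference was -0.51 for histones, -0.52 for kinesins and -0.90 for A and B cyclins, was -0.01 for the cell cycle list and turned to 0.25 for the replication list. The median of all members moved by the same amount as these.

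At 24 h these genes were lower in callus as well. Median log2 folds at 24 h, not centred, were -0.98 in callus and -1.09 in roots for histones, and -0.91 and -1.12 for kinesins. At least 2-fold lower in callus at 24 h were 14 of 29 histones, 16 of 35 kinesins and 10 of 12 A and B cyclins, against 1138 of all 4928 members (23.1%). In roots at 24 h the same counts were 18, 22 and 8, against 1007 members (20.4%). Each 24 h comparison shares its uninduced libraries with the 3 h comparison of that tissue.

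All 16 chlorophyll a/b binding proteins, of the light-harvesting antenna, were lower in roots, with a median of -2.08, while in callus 7 were lower and 2 higher, with a median of -0.78. Chlorophyll a-b binding protein 6A (Solyc05g056070) stood at -2.70 in roots and 0.16 in callus, and protein 4 (Solyc07g047850) at -2.57 and 0.03. The genes higher in callus were Solyc03g005770, given above, and Solyc02g071010, at -2.32 in roots and 1.98 in callus. The 12 photosystem I subunits, which sit beside this antenna, had medians of -1.27 in callus and -1.56 in roots, and a median difference of -0.18, which was -0.76 without centring. At 24 h, 15 of the 16 chlorophyll a/b binding proteins stood at least 2-fold higher in roots, against 556 of all members (11.3%), and 5 in callus, against 890 (18.1%). The sign at 3 h and 24 h in roots was thus opposite for these 15, with uninduced libraries shared by both. A further 8 chlorophyll a/b binding proteins had a callus fold of exactly 1 and are not among the members.

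Wall and defence genes held some of the largest single differences between the tissues, and those single differences lay in both directions. Of 43 peroxidases, 11 had a difference of at least 1 (25.6%) and 18 of at most -1 (41.9%), against 32.2% and 17.9% of all members. Of the 43, 4 were lower in roots and higher in callus. Without the heaped callus values 2 were left in that class, and 2 without exact or repeated folds. Extensin-like genes Solyc01g097720 and Solyc01g005850, for structural wall glycoproteins, stood at -3.41 and -2.63 in roots and at 2.40 and 1.47 in callus. The polygalacturonase gene Solyc09g098270, which cuts pectin, stood at -1.48 and 2.89, and the expansin gene Solyc10g086520, of a family that loosens walls, at 2.79 and 0.38. Of 56 expansin, xyloglucan enzyme and cellulose synthase genes, 28 were lower and 7 higher in roots, and 33 lower and 4 higher in callus. Over all members, 22.7% were lower in roots and 25.2% in callus. The median difference of these 56 was 0.47. Root cap protein 3 (Solyc08g066590) stood at -2.33 in roots and 2.74 in callus. The 13 root cap and root hair genes among the members did not share this pattern. Their median difference was 0.22, with 6 genes of at least 1 and 4 of at most -1. A further 5 had a callus fold of exactly 1 and were left out, and all 5 were lower in roots. Lists of lignin, pectin and extensin genes had median differences of 0.06, -0.06 and -0.02, and that of 94 pathogenesis-related genes and protease inhibitors 0.16. Further genes of these lists and of the peroxidases were left out for a callus fold of exactly 1. Among these, all 11 extensins and structural wall proteins were lower in roots, as were 12 of 16 peroxidases, with 2 higher. Of 9 lignin genes 7 were lower and 1 higher, and of 7 pectin enzymes 5 and 2. Of 13 pathogenesis-related genes and protease inhibitors, 4 were lower and 6 higher. Over all 367 left-out features, 228 were lower and 81 higher. Thaumatin-like gene Solyc03g079960, a pathogenesis-related protein by family, stood at 2.49 in roots and -2.57 in callus.

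Transcription factor families differed in how evenly they responded. NAC factors had a median difference of 1.06 over 25 members, with 14 of at least 1 (56%) and 2 of at most -1 (8%). Over all members these shares were 32.2% and 17.9%. The NAC gene Solyc08g074300 stood at 1.45 in roots and -4.37 in callus. Homeobox, GRAS, LOB and MADS factors had a median difference of 0.86 over 61 members, and LOB domain protein 1 (Solyc06g075330) stood at 4.09 in roots and -1.13 in callus. WRKY factors were higher in both tissues, 15 of 23 in roots and 16 of 23 in callus, with a median difference of 0.06. Single WRKY genes still parted, with Solyc02g094270 at 7.26 in roots and 1.24 in callus and WRKY 27 (Solyc03g007380) at 1.34 and 4.35. Ethylene response factors had a median difference of 0.25, near that of all members, but held Solyc02g090770 at 5.29 in roots and -0.77 in callus and Solyc08g082210 at 3.69 and -1.36. MYB and bHLH factors had median differences of 0.56 and 0.58, and receptor-like kinases, the largest list with 192 members, one of 0.08. Without centring these became -0.024, -0.0039 and -0.50, and those of WRKY and ethylene response factors -0.52 and -0.33, against -0.34 for all members. With the heaped callus values left out, the median difference of MYB factors was 0.012 over 42 members. Of their 4 genes higher in roots and lower in callus, 0 were then left.

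Anthocyanin genes, the known targets of the 2 regulators, were higher in both tissues and mostly more so in roots. All 8 structural genes were higher in roots and 7 in callus, with medians of 9.11 and 4.12. Short names follow the identifier lists. CHS2 (Solyc05g053550), a chalcone synthase at the entry to the pathway, had the largest difference of all members, 11.22, from 11.96 in roots and 0.74 in callus, and so lay between the limits for a gene of roots only. CHS1 (Solyc09g091510) stood at 9.37 in roots and 2.22 in callus. The difference was 4.33 for F3H (Solyc02g083860) and CHIL (Solyc05g052240), 2.24 for F3'5'H (Solyc11g066580), 1.38 for ANS (Solyc08g080040) and -1.03 for DFR (Solyc02g085020), which stood at 12.81 in roots and 13.84 in callus. CHI (Solyc05g010320), which acts right after chalcone synthase, had a difference of 0.81.

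Of 6 decoration and transport genes, all were higher in both tissues. The MATE transporter (Solyc03g025190), which loads anthocyanins into the vacuole, stood at 13.72 in roots and 8.25 in callus. The glutathione S-transferase Solyc02g081340 stood at 13.43 and 10.75, and the acyltransferase AAC (Solyc12g088170) at 12.29 and 9.95. The glucosyltransferase 3GT (Solyc10g083440) had a difference of 0.84 and 5GT (Solyc12g098590) one of -0.93. The methyltransferase AOMT (Solyc09g082660) stood higher in callus, at 9.21 against 7.19. Among the regulators, MYB-ATV (Solyc07g052490), a repressor of the pathway in tomato, stood at 9.0 in roots and 4.49 in callus, and the bHLH gene AN1 (Solyc09g065100) at 8.39 and 6.11. The WD-repeat gene AN11 (Solyc03g097340) had a difference of 0.51, which was -0.07 without centring.

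The transgenes themselves did not differ alike. Delila stood at 9.40 in roots and 6.11 in callus, a difference of 3.28, and Rosea at 8.78 and 7.88, a difference of 0.90. Both were far above 1 in each tissue, which is why the reference of each fold, not named in the headers, was read as the uninduced samples. Whether the difference in Delila has a part in the differences between the tissues was not tested.

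The classes set at 3 h had different values at 24 h. Over all members the median log2 fold at 24 h, not centred, was -0.10 in roots and -0.01 in callus. Genes higher in roots only had medians of 0.27 in roots and 0.03 in callus. Of these 352 genes, 54 were at least 2-fold higher in roots at 24 h, against 556 of all 4928 members (11.3%). Genes lower in roots only stood at -1.06 in roots and -0.83 in callus, and 133 and 99 of the 244 were at least 2-fold lower there. Over all members these counts were 1007 (20.4%) in roots and 1138 (23.1%) in callus. Genes higher in callus only stood at 0.83 in callus and -0.09 in roots, and those lower in callus only at -0.74 and -0.39. Genes higher in roots and lower in callus stood at 0.03 and -0.47, and those of the reverse pattern at -1.40 and 0.26. Of the genes higher in roots only, Solyc07g056570 of abscisic acid synthesis stood at 0.25 in roots at 24 h, while Solyc03g026270, an ethylene-responsive factor, stood at 3.62. All these values share uninduced libraries with those that set the classes.

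**Figure D5:**
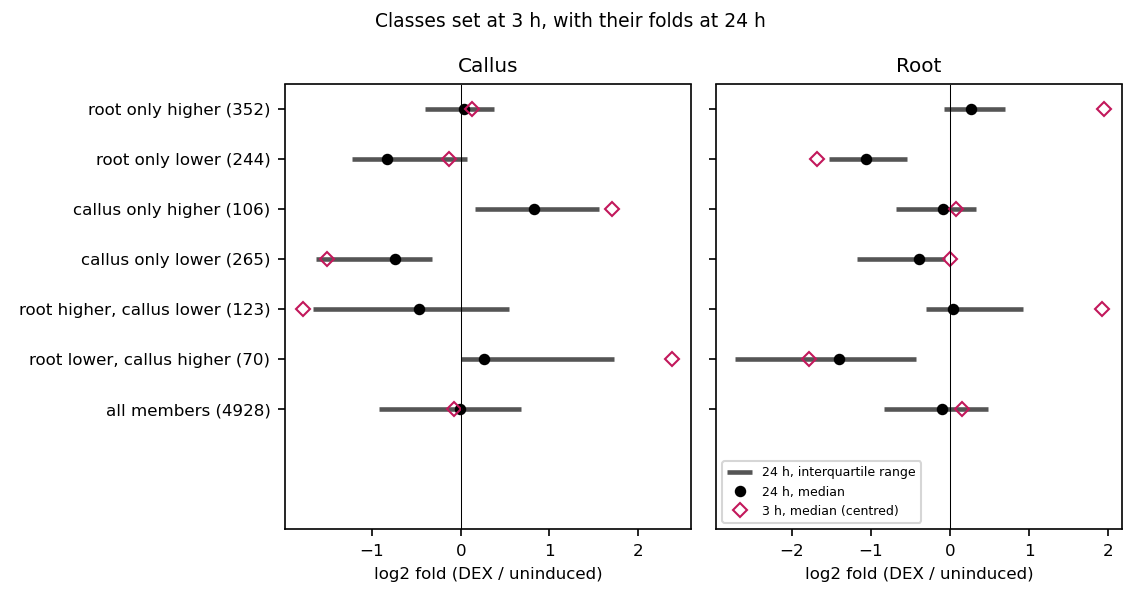
For each class set at 3 h, the black point and bar give the median and the interquartile range of its members' log2 folds at 24 h, not centred, and the open diamond the median centred log2 fold at 3 h, for callus (left) and roots (right). Genes higher in roots only lie at 1.94 in roots at 3 h and 0.27 at 24 h, and genes lower in roots only reach -0.83 in callus at 24 h.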

How the data were processed

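Stranded, polyadenylated RNA libraries of callus and roots were grouped by tissue and induction time as the labels give them, in 6 groups of 3. The submitters' processing notes name CASAVA 1.8.1. Not given in the sources used here are the aligner, genome build, counting method, normalization and depth. Per the file headers, the authors gave each of 4 comparisons as a signed fold change (a score that is negative for a reduction), as a linear ratio, and as the log10 of that ratio. The 2 deposited files hold the same values, with a largest difference of 0 between them.

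Log2 values were taken from the ratio columns for callus and roots at 3 h, and each column was centred on its median over all 5295 features. Features with a callus fold of exactly 1 were left out. The 24 h values were not centred. The count-based and linear-model tests planned over the libraries could not be used, because the files hold folds and no values per library. A response was a size of at least 1 in log2, no response a size under 0.5, and genes of 1 tissue only also needed a difference of at least 1. The code of the class rule was checked on simulated folds set well clear of the limits, for some of the classes. That check does not bear on the choice of limits or of centring. Python 3.11.15, numpy 2.4.6, pandas 2.3.3 and matplotlib 3.10.9 were used.

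The members, lists and rules were chosen with earlier results of these data known. Sub-lists (such as small heat shock proteins) and words kept out of a list were added after descriptions and values had been seen. Genes named are the 8 of largest difference in size per class (those with no described function counted, and 1 named after its values were seen), up to 5 per list of at least 5 members, all anthocyanin genes and both transgenes. The genes nearest the limits and those in the observations were also named after their values were seen. Of the table's identifiers, 0 matched the supplied RefSeq genes. Alternatives were other limits, other centrings, kept folds of exactly 1, removed exact or repeated folds, the second deposited file and lists matched at the start of the description. The removal of heaped callus values, and another centring applied to the lists, were chosen after seeing the data.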

Additional observations from a re-analysis of the deposited data

How the results depend on the processing

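The class counts depended on the limits and on the centring. With a 4-fold response the classes held 156 genes higher in roots only (352 as reported), 86 lower in roots only (244), 34 higher in callus only (106), 71 lower in callus only (265), 15 higher in roots and lower in callus (123) and 20 of the reverse (70). With a no-response limit of 1 the 4 one-tissue classes, in that order, held 634, 385, 187 and 442, and with a limit of 0.25 they held 174, 143, 48 and 153. Without centring, the classes after the first held 512, 195, 158, 81 and 113. Centring on features under 2-fold in the other tissue moved the columns by 0.16 in callus and -1.15 in roots in place of 0.00 and -0.58, and these 5 classes held 95, 64, 415, 253 and 40. Keeping callus folds of exactly 1 gave 472 genes lower in roots only. Leaving out the heaped callus values gave 42 genes lower in roots and higher in callus. The second deposited file gave the same counts, and leaving out exact or repeated folds kept each of the 6 counts within 1.5 times.

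Among 59 lists of 5 or more members, those at least 0.5 above or below all members numbered 15 and 13, with ranges of 14 to 17 and 11 to 13 over the alternatives. Without centring every difference was lower by 0.58, and 20 of the 59 median differences, from 0.06 to 0.58 as reported, turned negative. Of those of at least 0.5, the median turned to -0.024 for MYB, -0.0039 for bHLH and -0.058 for lipid, wax, cutin and suberin genes, and the difference to -0.072 for AN11 and -0.010 for the shikimate kinase gene Solyc04g051860. Under the other centring every difference was higher by 0.73 in log2, and 10 median differences, from -0.52 to -0.02 as reported, turned positive, among them that of photosynthesis, to 0.21. The cytokinin list moved to 0.69 when matched at the start of the description. No paired analysis was possible because the files hold no values per library. For the same reason, leaving out each replicate, the fit with a replicate block and count models with edgeR or DESeq2 were not run. The depth is unknown, so its limits on low genes are unknown too.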

Other observations

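The 367 features with a callus fold of exactly 1 at 3 h, which were left out of the comparison, had their own pattern in roots. There 228 were at least 2-fold lower, 81 higher and 58 neither, with a median centred log2 fold of -1.42. Of the 367, 300 also had a callus fold of exactly 1 at 24 h, and 3 had a root fold of exactly 1 at 3 h. All 11 extensins and structural wall proteins among them were lower in roots, led by Solyc12g100110 at -6.91 and Solyc12g100080 at -6.70, whose identifiers lie close together. Also lower in roots were 12 of 16 peroxidases, 11 of 15 cytochromes P450, 7 of 8 chlorophyll a/b binding proteins and all 5 root cap and root hair genes. These counts come from genes without a usable callus value, and whether the genes were detected in callus is unknown.

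On the higher side stood a MYB factor (Solyc02g089190) at 7.24, a protein phosphatase type 2C (Solyc03g006930) at 7.10, a cytochrome P450 (Solyc03g111290) at 6.75 and a low-temperature-induced 65 kDa protein (Solyc03g025810) at 6.09. Solyc10g076670, described as an anthocyanidin synthase, stood at 5.59, and the 1-aminocyclopropane-1-carboxylate oxidase gene with the next identifier, Solyc10g076680, at 5.38. At 24 h these stood at -0.67 and -0.05 in roots on the log2 scale, not centred, while the MYB factor stood at 2.96.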
